A study of Elopichthys bambusa with 12 samples.

Results

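In livers of yellowcheek carp (Elopichthys bambusa), a predatory cyprinid fish, 75 of 42353 assembled transcript features stood at 20 CPM or more in 3 groups of fish and at a small part of that level in the remaining group. The groups were fish fasted for 28 days, fish fasted for 8 days, fish fed a commercial diet for 28 days and fish fed that diet for 8 days, with 3 liver libraries each. The 75 features were low in the 8-day fed group. They were chosen by their measured values, as follows. CPM, the unit of level used throughout, is a feature's estimated count scaled to the total of its library. Group means had to be 20 CPM or more in the 28-day fasted, 8-day fasted and 28-day fed groups, the 8-day fed mean had to be at most 1/8 of each of them, and every 8-day fed library had to lie below all 9 other libraries. The first condition was met by 2290 features, the second left 76 of these, and the third left 75. Every contrast with the 8-day fed group was therefore used in choosing the features and is given here as a description, without a test. The labels leave out the age of the fish and whether a library came from a single fish or a pool. The p-values below set differences between group means against the spread between libraries, which may not be the spread between fish.

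A fasted liver lives on reserves: it breaks down glycogen, oxidises fatty acids, makes glucose from amino acids and lowers the synthesis of fat and of many secreted proteins. A fed group sampled on the same day serves to separate those changes from growth, handling and season. The features come from a de novo assembly, in which reads are joined into transcripts without a genome, so that 1 gene may be spread over several features and allelic or splice forms may be assembled apart. Their identifiers have the form written by the Trinity assembler (cluster, gene and isoform) followed by a further last number from 1 to 4. The files pair no identifier with a gene name, sequence or genome position, so neither the roles of the 75 features nor the liver's own marker genes could be checked.

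The libraries held 16785827 to 19901335 estimated counts, and depth did not set the 8-day fed group apart. More features met the conditions, or their reverse, for this group than for any other. The same conditions with another group as the low one gave 0 features for the 28-day fasted, 0 for the 8-day fasted and 2 for the 28-day fed group, against 75 for the 8-day fed group. The reverse conditions, 20 CPM or more in 1 group and at most 1/8 of that in the other 3, gave 0, 0, 11 and 99 features for the groups in the same order. Both kinds of condition need a gap to every other group. Between the fasted groups 0 of 32212 features were called by edgeR, although the libraries of 6.64% of them did not overlap in plain CPM. An absence of calls with 3 libraries per group does not show that these groups were alike. Why the fasted groups gave 0 features was not tested. Instruments of 2 kinds are named in the labels without saying which library was read on which. The 8-day fed diet and day and anything else shared by those 3 libraries cannot be told apart.

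The 75 features together took 11802, 13029 and 11172 CPM in the 28-day fasted libraries, 11467, 12228 and 9929 CPM in the 8-day fasted libraries, and 11120.1, 10289.6 and 11734 CPM in the 28-day fed libraries, against 613, 595 and 516 CPM in the 8-day fed libraries. Summed over the 75, the 9 other libraries thus gave about the same share of their counts. The choice itself required high levels in all 3 of these groups. Single features differed between fasted and 28-day fed livers in both directions, as given below, so the like sums do not show that feeding left them unchanged. As group means these shares were 1.20% ± 0.094, 1.12% ± 0.117, 1.10% ± 0.073 and 0.0575% ± 0.0052 of all counts (SD, n = 3 libraries each). The 99 features that were high in the 8-day fed group took 0.0534%, 0.0459%, 0.0782% and 1.92% of the counts in the same order of groups.

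**Figure D1:**
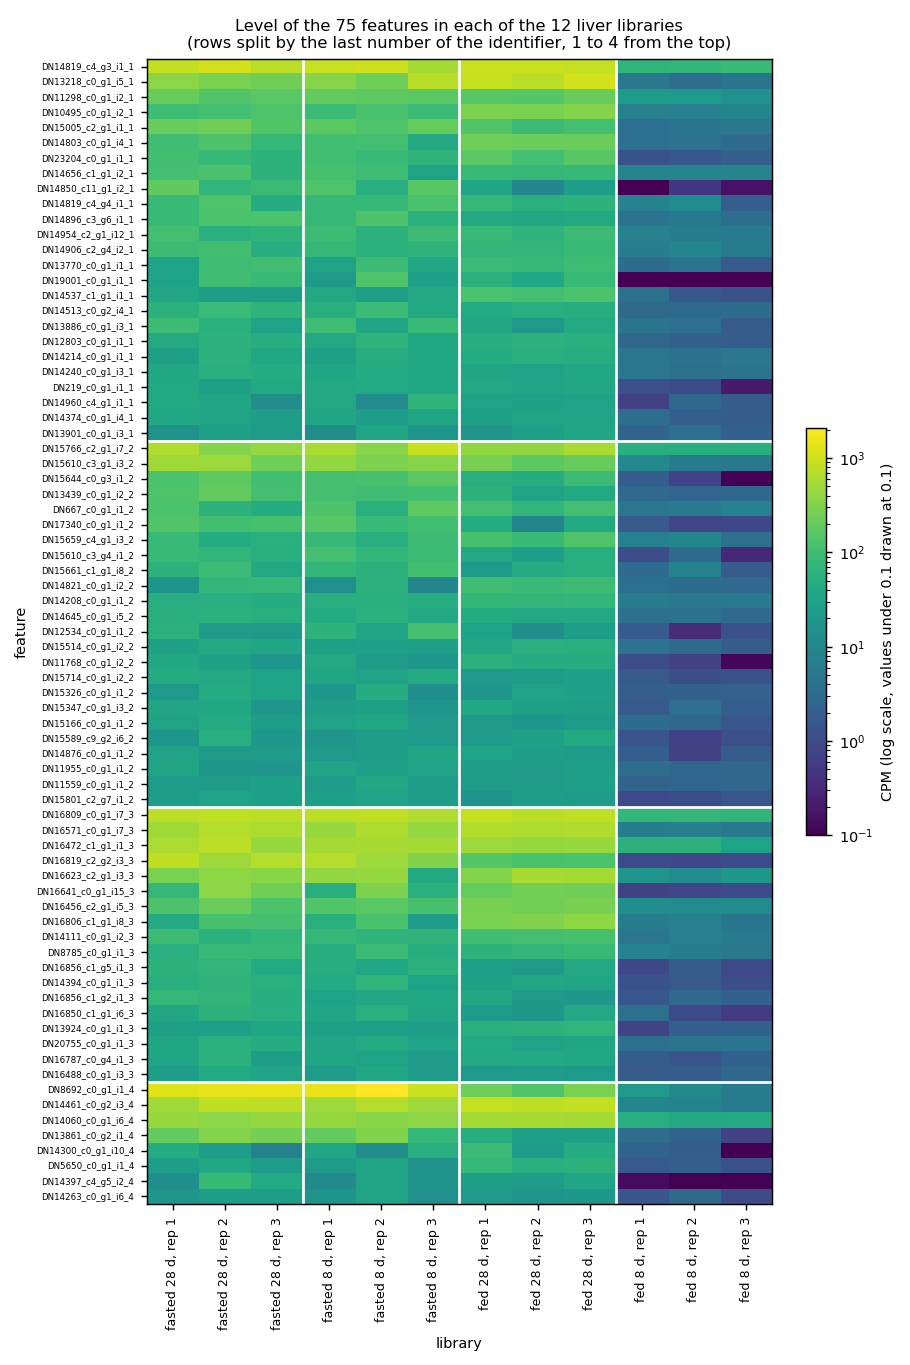
CPM (colour, log scale) of the 75 features (rows, split by the last number of the identifier) in the 12 liver libraries (columns, 3 per group). The 3 columns of the 8-day fed group are low in every row, and the 9 other columns differ among themselves by a median of 2.76-fold between the highest and the lowest library.

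The features were low rather than missing in the 8-day fed livers. At least 1 count was present in all 3 of these libraries for 70 of the 75 features, and 10 counts or more for 65 of them. The 8-day fed mean was under 1 CPM for 8 features, between 1 and 5 CPM for 44 and at 5 CPM or more for 23, and 5 features still stood at 20 CPM or more. The median 8-day fed level was 3.01 CPM (0 to 73.5), and the median share of the mean of the 9 other libraries was 5.19% (0 to 11.4%). The gap was at least 16-fold for 33 features and at least 64-fold for 9.

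**Figure D2:**
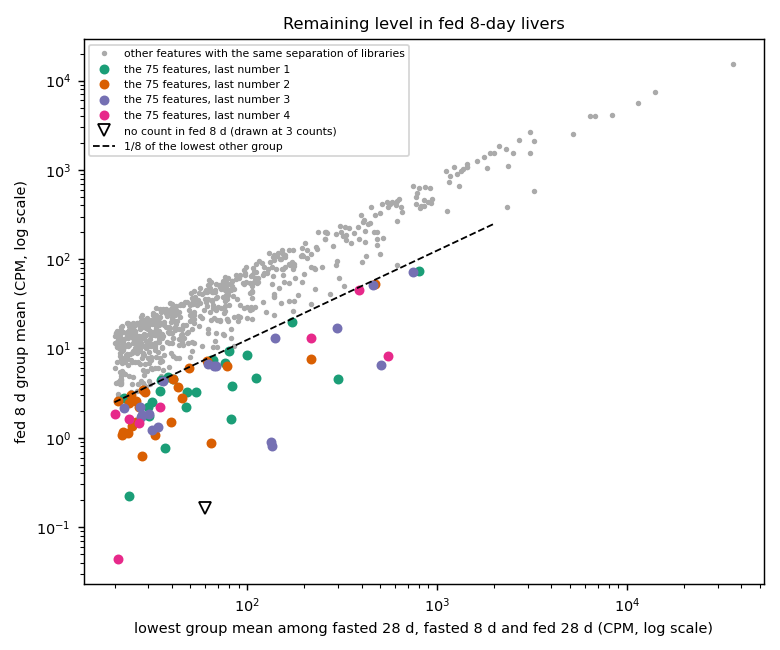
Mean CPM in the 8-day fed group (vertical axis, log scale) against the lowest mean of the 3 other groups (horizontal axis, log scale) for the 75 features (coloured by last number) and for other features whose 8-day fed libraries lay below all 9 others (grey). The line marks 1/8, and the triangle is the feature with no 8-day fed count, drawn at 3 counts. The 75 features lie just below the line and down from it, with no gap at the line.

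A single feature had no count in any 8-day fed library. TRINITY_DN19001_c0_g1_i1_1, 353 nucleotides long, had 32.5, 98.1 and 83 CPM in the 28-day fasted livers, 23.0, 137 and 29.5 CPM in the 8-day fasted livers and 58.8, 38.1 and 83.2 CPM in the 28-day fed livers. It was therefore present in every library outside the 8-day fed group, with wide differences among fasted livers. Against a floor of 3 counts per library, 0.165 CPM on average, the lowest of its other group means, 60 CPM in the 28-day fed livers, was at least 365-fold higher. Such floors cover counting error only. TRINITY_DN14397_c4_g5_i2_4, 592 nucleotides long, rested on 2.49 estimated counts in the 8-day fed livers, all in replicate 1. Its other libraries held 14.1, 79.6 and 43.5 CPM (28-day fasted), 11.4, 34.0 and 17.5 CPM (8-day fasted) and 26.3, 23.2 and 34.6 CPM (28-day fed).

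At the edge of the choice the values ran on without a step. The lowest of the 3 other group means was 8.03 times the 8-day fed mean for TRINITY_DN13901_c0_g1_i3_1, 8.03 times for TRINITY_DN14214_c0_g1_i1_1 and 8.02 times for TRINITY_DN14240_c0_g1_i3_1, the last inside. It was 7.95 times for TRINITY_DN14957_c1_g1_i3_1, 7.95 times for TRINITY_DN14444_c1_g3_i2_4 and 7.90 times for TRINITY_DN13490_c0_g1_i1_2, the first outside. TRINITY_DN14240_c0_g1_i3_1 averaged 45.6, 39.6, 35.3 and 4.40 CPM in the 28-day fasted, 8-day fasted, 28-day fed and 8-day fed groups, and TRINITY_DN14957_c1_g1_i3_1 averaged 26.2, 34.5, 65.5 and 3.30 CPM.

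The 10 features with the most counts held 56.5% of the summed CPM of all 75 in the 9 other libraries. They fell into 3 kinds by the tests described below. No call between fasted and 28-day fed livers was made for 4. In at least 1 comparison, 4 were called lower in fasted livers and 2 higher. These calls were not equally firm, and several were lost in alternative settings given below. The flattest was TRINITY_DN16809_c0_g1_i7_3 (3213 nucleotides), which had 785, 797 and 775 CPM in the 28-day fasted livers, 786, 809 and 640.4 CPM in the 8-day fasted livers and 859, 748 and 806 CPM in the 28-day fed livers, against 72.1, 73.1 and 68.3 CPM in the 8-day fed livers. Its highest library outside the 8-day fed group was 1.34 times its lowest, the smallest spread among the 75, and its groups overlapped. TRINITY_DN14819_c4_g3_i1_1 (2397 nucleotides) had 832, 1062 and 755 CPM in the 28-day fasted livers, 898, 966 and 548 CPM in the 8-day fasted livers and 911, 926 and 886 CPM in the 28-day fed livers, against 66.9, 72.2 and 81.4 CPM in the 8-day fed livers. Fasted and 28-day fed livers overlapped here too, with 8-day fasted replicate 3 the lowest. This feature kept the highest 8-day fed level of the 75.

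TRINITY_DN16472_c1_g1_i1_3 (1781 nucleotides) had 596, 793 and 451 CPM in the 28-day fasted livers, 542, 573 and 542 CPM in the 8-day fasted livers, 496, 434 and 446 CPM in the 28-day fed livers and 60.8, 60.1 and 32.4 CPM in the 8-day fed livers. TRINITY_DN15766_c2_g1_i7_2 (6078 nucleotides) had 646, 330.4 and 434 CPM in the 28-day fasted livers, 593, 349 and 913 CPM in the 8-day fasted livers, 402, 414 and 589 CPM in the 28-day fed livers and 53.0, 53.2 and 51.9 CPM in the 8-day fed livers. For neither did fasted livers differ from 28-day fed livers past the threshold. In the first, the 8-day fasted libraries all lay above the 28-day fed ones, while the 28-day fasted libraries overlapped them. In the second, the fasted libraries differed more from each other than the group means did, while its 8-day fed libraries were nearly equal.

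TRINITY_DN14461_c0_g2_i3_4 (2273 nucleotides) had 505, 795 and 767 CPM in the 28-day fasted livers, 487, 688 and 485 CPM in the 8-day fasted livers and 877, 800.0 and 841 CPM in the 28-day fed livers, against 9.69, 9.02 and 6.05 CPM in the 8-day fed livers. All 6 fasted libraries lay below the 3 of the 28-day fed group. TRINITY_DN16571_c0_g1_i7_3 (2808 nucleotides) had 505, 689.8 and 622 CPM in the 28-day fasted livers, 444, 647 and 429 CPM in the 8-day fasted livers and 665, 619.9 and 639 CPM in the 28-day fed livers, against 6.76, 7.16 and 5.57 CPM in the 8-day fed livers. Fasted and 28-day fed libraries overlapped. TRINITY_DN14060_c0_g1_i6_4 (1561 nucleotides) had 452, 373 and 432 CPM in the 28-day fasted livers, 437, 363 and 366 CPM in the 8-day fasted livers and 558, 576 and 548 CPM in the 28-day fed livers, against 51.1, 40.7 and 44.5 CPM in the 8-day fed livers. All fasted libraries lay below the 28-day fed ones and far above the 8-day fed ones.

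TRINITY_DN13218_c0_g1_i5_1 (1430 nucleotides) had 376, 285 and 239 CPM in the 28-day fasted livers, 343, 237 and 718 CPM in the 8-day fasted livers and 887, 764 and 1044 CPM in the 28-day fed livers, against 5.30, 3.61 and 4.85 CPM in the 8-day fed livers. The fasted livers thus stood between the 2 fed groups, with 8-day fasted replicate 3 close to the 28-day fed range. The 28-day fed mean was 898 ± 140.3 CPM and the 8-day fed mean 4.59 ± 0.875 CPM (SD, n = 3 libraries each).

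Higher in fasted than in 28-day fed livers were the remaining pair of the 10. TRINITY_DN8692_c0_g1_i1_4 (767 nucleotides) had 1306, 1449 and 1496 CPM in the 28-day fasted livers, 1502, 2041 and 899 CPM in the 8-day fasted livers and 231, 142 and 279 CPM in the 28-day fed livers, against 22.1, 11.0 and 6.08 CPM in the 8-day fed livers. It was the most abundant of the 75, also per length, at a mean of 1333 FPKM (fragments scaled to feature length and library size) over the 9 libraries outside the 8-day fed group, and the next was TRINITY_DN13218_c0_g1_i5_1 at 374 FPKM. TRINITY_DN16819_c2_g2_i3_3 (1839 nucleotides) had 808, 485 and 703 CPM in the 28-day fasted livers, 705, 485 and 324 CPM in the 8-day fasted livers and 154, 121 and 124 CPM in the 28-day fed livers, against 0.918, 0.846 and 0.935 CPM in the 8-day fed livers. All fasted libraries of both features lay above the 28-day fed ones, while the lowest level in 8-day fed livers was set by the choice itself.

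**Figure D3:**
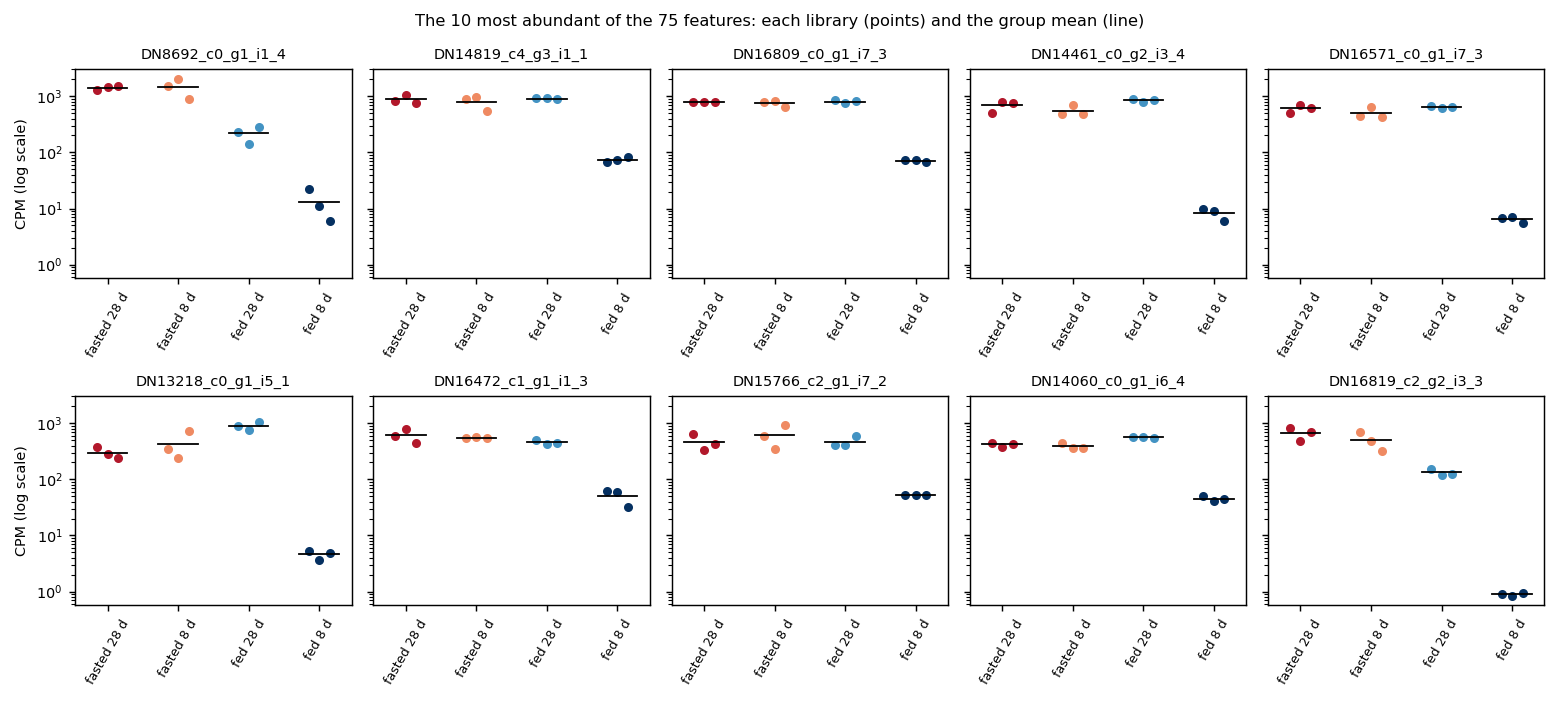
CPM (log scale) in each library (points) and group means (lines) for the 10 features with the most counts, in the 28-day fasted, 8-day fasted, 28-day fed and 8-day fed groups from left to right. TRINITY_DN16809_c0_g1_i7_3 is flat over the first 3 groups, TRINITY_DN13218_c0_g1_i5_1 is lower in fasted than in 28-day fed livers, and TRINITY_DN8692_c0_g1_i1_4 is higher.

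The other 65 features had lower counts. Over all 75, the mean of the 9 other libraries had a median of 62.3 CPM (21.7 to 1038), with 22 features over 100 CPM and 31 under 50 CPM. Per length the median was 39.7 FPKM (4.18 to 1333), beside 39.2 FPKM for the 2215 other features that met the first condition of 20 CPM. The lengths did not stand out either, with a median of 1982 nucleotides (350 to 6657) beside 1909 nucleotides (321 to 11930). The libraries of a group differed more for the 75 features than for the 2215: the median coefficient of variation was 26.0% against 17.1% in 28-day fasted, 27.5% against 18.5% in 8-day fasted, 15.6% against 11.6% in 28-day fed and 25.5% against 8.74% in 8-day fed livers. The last pair includes the low counts of the 75 in that group. These differences were not tested.

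The last number of the identifier was 1 for 25 of the 75 features (33.3%), 2 for 24 (32.0%), 3 for 18 (24.0%) and 4 for 8 (10.7%). A last number of 1 or 2 was carried by 65.3% of the 75 features, beside 51.6% of the 2290 features at 20 CPM or more in the 3 other groups and 45.0% of all features. The features met the conditions in 3.96%, 4.37%, 2.79% and 1.73% of the features at that level for the numbers 1 to 4, so all 4 numbers contributed and the number 4 least. Of the 99 features that were high in the 8-day fed group, 92.9% carried a 3 or a 4, and 7 carried a 1 or a 2.

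Features that took most of their CPM from a single library were counted by last number. Among features with 30 counts or more, those with over 60% of their summed CPM in 1 library numbered 38 for the 28-day fasted, 18 for the 8-day fasted, 39 for the 28-day fed and 156 for the 8-day fed libraries. For the 8-day fed libraries 152 of the 156 carried a 3 or a 4, with 60 of number 4 from replicate 1, 50 of number 4 from replicate 3 and 38 of number 3 from replicate 2. Number 1 was led by replicate 3 of the 8-day fasted (8) and of the 28-day fed group (19), and number 2 by replicate 2 of the 28-day fasted group (18). Outside the 8-day fed group, number 3 was led by replicate 3 of the 28-day fasted (14) and replicate 2 of the 8-day fasted group (6), and number 4 by replicate 1 of the 28-day fed group (17). Replicate 1 of the 8-day fasted and replicate 2 of the 28-day fed group had only 3 such features each, all of number 2. Replicate 1 of the 28-day fasted group had 2 of number 1 and 1 of number 3. Such small counts tie these libraries to no number. A 3 or a 4 was carried by 17 of the 38 features of the 28-day fasted, 6 of the 18 of the 8-day fasted and 17 of the 39 of the 28-day fed libraries. At least 1 of the numbers 3 and 4 thus occurred in every group, and together they made up almost all such features in the 8-day fed livers. Number 4 had 0 such features in both fasted groups, and number 3 had 0 in the 28-day fed group. The share of counts on features of number 1 was 30.5%, 32.0%, 30% and 26.8% in the 28-day fasted, 8-day fasted, 28-day fed and 8-day fed groups. For number 2 it was 18.9%, 18.2%, 19.6% and 18.9%, for number 3 it was 24.8%, 24.1%, 24.4% and 27.7%, and for number 4 it was 25.8%, 25.8%, 26.0% and 26.5%. The 8-day fed share was thus lowest for number 1 and within the range of the other groups for number 2. For number 3 it was highest, at 26.8% to 28.3% in the 8-day fed libraries beside at most 25.8% in any other library. For number 4 its mean was highest too, but the libraries overlapped those of other groups. The numbers may mark separate assemblies, which the sources used here do not state, and the part of the last number in the low 8-day fed levels was not tested. Low features with a last number of 3 or 4 numbered 26, and the most abundant, TRINITY_DN8692_c0_g1_i1_4, was among them.

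**Figure D4:**
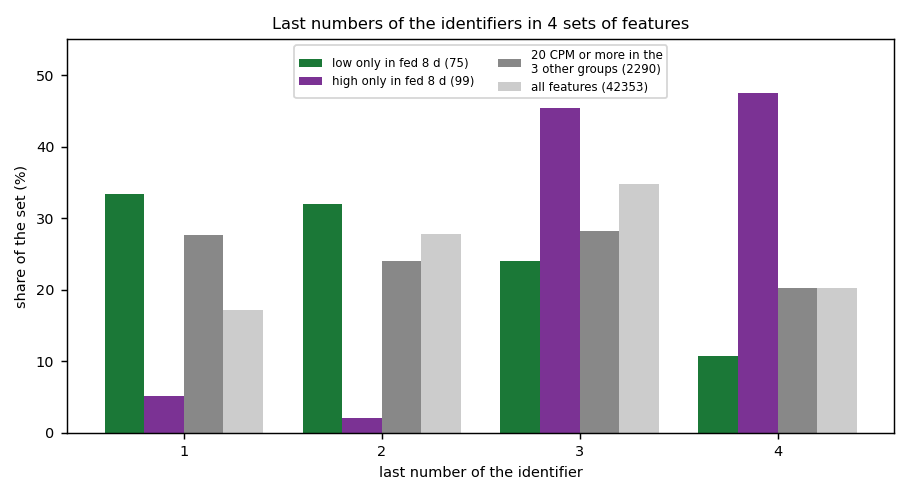
Share (%) of each last number, 1 to 4, in 4 sets: the 75 features, the 99 features high in the 8-day fed group alone, the 2290 features at 20 CPM or more in the 3 other groups, and all 42353 features. The 75 features lean to 1 and 2 (65.3%), and the 99 lean to 3 and 4 (92.9%).

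No feature shared its Trinity gene and last number with another, here or in the rest of the table. Looked at after the data were seen, the wider Trinity cluster (the identifier up to the gene, with the same last number) held other features for 26 of the 75 (34.7%, beside 27.2% of the 2290). The 75 lay in 72 clusters, of which 3 held a pair of them. In the first pair, TRINITY_DN15610_c3_g1_i3_2 averaged 403, 350.1, 215 and 7.58 CPM in the 28-day fasted, 8-day fasted, 28-day fed and 8-day fed groups, and TRINITY_DN15610_c3_g4_i1_2 averaged 67.4, 88.3, 39.6 and 1.49 CPM. Both were higher in the fasted than in the 28-day fed groups by their means. In the second pair, TRINITY_DN16856_c1_g2_i1_3 averaged 64, 36.8, 27.3 and 2.22 CPM and TRINITY_DN16856_c1_g5_i1_3 averaged 59.5, 48.6, 31.4 and 1.21 CPM in the same order of groups, again with higher fasted means. The remaining pair differed: TRINITY_DN14819_c4_g3_i1_1 averaged 883, 804, 908 and 73.5 CPM, highest in the 28-day fed group, and TRINITY_DN14819_c4_g4_i1_1 averaged 90.2, 92.9, 64.8 and 7.50 CPM, with the 28-day fed mean below both fasted means.

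The clusters held 44 further features outside the 75. Of these, 10 had a higher 8-day fed mean than that of any other group, and 16 had a lower one. Only 2 of the 44 stood at 20 CPM or more in the 3 other groups, so many of these rankings rest on low levels. The like shares over all features were not counted, and nothing is read from these counts. At 20 CPM or more in the 8-day fed livers stood 2 of the 44, in separate clusters, and both had the opposite pattern to the feature of the 75 in their cluster. TRINITY_DN16787_c0_g4_i1_3, one of the 75 (918 nucleotides), had 36.8, 58.9 and 25.2 CPM in 28-day fasted, 34.9, 31.6 and 24.9 CPM in 8-day fasted and 42.8, 42.3 and 37.7 CPM in 28-day fed livers, against 1.91, 1.42 and 2.22 CPM in 8-day fed livers. Of its 5 neighbours, TRINITY_DN16787_c0_g1_i1_3 (726 nucleotides) had 5.23, 1.75 and 0.764 CPM in 28-day fasted, 2.56, 1.72 and 3.50 CPM in 8-day fasted and 1.30, 2.36 and 1.44 CPM in 28-day fed livers, against 77.0, 76.0 and 89.1 CPM in 8-day fed livers. This neighbour was high where the feature of the 75 was low. The other 4 neighbours were low throughout, with group means between 0.169 and 7.85 CPM. The highest of them, TRINITY_DN16787_c0_g2_i1_3, averaged 7.16, 7.18, 3.41 and 7.85 CPM.

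The second such cluster held TRINITY_DN16623_c2_g1_i3_3 (2770 nucleotides), with 281, 389.7 and 357 CPM in 28-day fasted, 421, 429 and 42.2 CPM in 8-day fasted and 335, 572 and 553 CPM in 28-day fed livers, against 18.2, 12.1 and 20.2 CPM in 8-day fed livers. Its only neighbour, TRINITY_DN16623_c2_g2_i1_3 (2497 nucleotides), had 5.93, 4.73 and 5.23 CPM in 28-day fasted, 7.43, 5.48 and 5.51 CPM in 8-day fasted and 1.90, 2.52 and 2.51 CPM in 28-day fed livers, against 36.3, 35.1 and 31.3 CPM in 8-day fed livers. Here too 1 feature was low in the 8-day fed livers and its neighbour high. Below that level, TRINITY_DN14300_c0_g2_i1_4 averaged 0.0852, 0.0836, 0.0444 and 2.71 CPM. Other neighbours were lowest in the 8-day fed group, like the chosen feature of their cluster. TRINITY_DN13770_c0_g2_i3_1 averaged 17.7, 11.6, 27.1 and 0.848 CPM. TRINITY_DN16850_c1_g8_i1_3 averaged 14.2, 12.7, 12.3 and 1.94 CPM, and TRINITY_DN16806_c1_g2_i4_3 averaged 36.5, 37.0, 27.1 and 16.3 CPM. Of the 44 neighbours, 16 were lowest and 10 highest in 8-day fed livers. The opposite cases were named after their values were seen and do not stand for all 44. Another cluster held several patterns. TRINITY_DN16819_c2_g6_i2_3 (1744 nucleotides), 1 of 4 neighbours of TRINITY_DN16819_c2_g2_i3_3, had 35.4, 34.5 and 23.8 CPM in 28-day fasted, 39.4, 29.0 and 29.3 CPM in 8-day fasted, 168, 375 and 346 CPM in 28-day fed and 15.7, 22.1 and 21.2 CPM in 8-day fed livers. It stood high in the 28-day fed livers alone, whereas TRINITY_DN16819_c2_g2_i3_3 stood highest in fasted livers. In the same cluster TRINITY_DN16819_c2_g5_i1_3 averaged 2.08, 0.964, 1.26 and 8.08 CPM, highest in the 8-day fed group. No source used here tells whether the features of a cluster are forms of 1 gene. The estimated counts may also split reads between near-identical features, so these levels are uncertain.

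The first comparison set the 28-day fast against its own fed control, and it asked whether the 75 respond to a long fast. This contrast was not itself used in choosing the features. Both of its group means, however, had to meet the floor of 20 CPM and the gap to the fed group that defined the features. A feature that fell far in either group could thus be left out, which limits the fold changes and shares given here. The same limit applies to the comparisons that follow. The 2215 other features share the floor but not the gap. Of the 75, 5 were higher and 13 lower in 28-day fasted than in 28-day fed livers at an adjusted p under 0.05 (edgeR's quasi-likelihood test, Benjamini-Hochberg adjustment over 32212 features), and 57 did not pass. Higher calls made up 6.67% of the 75 and 4.14% of all features tested, beside 6.28% of the 2215 other features at 20 CPM or more. Lower calls made up 17.3% of the 75 and 5.79% of all features tested, beside 23.5% of the 2215. Both shares thus exceeded those of all features, while among features of like abundance the higher share was close and the lower share larger than that of the 75. The median log2 fold change was -0.32 for the 75, beside 0.10 for all features tested and -0.27 for the 2215. In plain CPM the libraries of the 2 groups did not overlap for 34 of the 75 (45.3%), beside 35.4% of all features tested. Of the 75, 18 lay higher in fasted livers (24%, beside 26.1% of all features) and 16 lower (21.3%, beside 9.37%). The like share of the 2215 was not counted.

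The fold changes rest on TMM scaling, which corrects library sizes for composition; its factors averaged 1.10 in 28-day fasted, 1.03 in 8-day fasted and 0.865 in 28-day fed livers. A ratio of plain CPM is therefore higher than the fold change given. With library sizes alone, 8 of the 75 were higher and 9 lower in this comparison, and 6 and 9 in the next, while the median of all features moved to 0.45 and 0.32. Relative to that median, the 75 stood at -0.44 and -0.29, as against -0.43 and -0.29 with TMM.

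TRINITY_DN13861_c0_g2_i1_4 (915 nucleotides) had the largest rise, with 192, 329 and 258 CPM in 28-day fasted against 48.4, 27.7 and 28.3 CPM in 28-day fed livers, a log2 fold change of 2.52 ± 0.52 (SE; adjusted p = 0.0121 by edgeR). The groups did not overlap, and its 8-day fed level was 2.22 ± 1.41 CPM (SD, n = 3). The call was lost without replicate 2 or 3 of the 28-day fed group (adjusted p up to 0.0611 by edgeR). TRINITY_DN8692_c0_g1_i1_4 rose by 2.37 ± 0.42 (adjusted p = 0.00551 by edgeR) and TRINITY_DN16819_c2_g2_i3_3 by 2.0 ± 0.32 (adjusted p = 0.00323 by edgeR). The other rises were those of TRINITY_DN13439_c0_g1_i2_2 (log2 fold change 1.31) and TRINITY_DN14896_c3_g6_i1_1 (1.12). By the choice itself all 5 were lowest in the 8-day fed group, and the calls placed their 28-day fasted above their 28-day fed levels.

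The largest fall was that of TRINITY_DN14537_c1_g1_i1_1 (2937 nucleotides), with 39.1, 26.1 and 25.1 CPM in 28-day fasted against 128, 109 and 125 CPM in 28-day fed livers, a log2 fold change of -2.32 ± 0.41 (SE; adjusted p = 0.00584 by edgeR). TRINITY_DN16806_c1_g1_i8_3 (2655 nucleotides) had 44.2, 116 and 109.9 CPM in 28-day fasted against 279.7, 321 and 385 CPM in 28-day fed livers, a log2 fold change of -2.24 ± 0.44 (adjusted p = 0.00964 by edgeR). TRINITY_DN13218_c0_g1_i5_1 fell by 1.90 ± 0.42 on the log2 scale (adjusted p = 0.0163 by edgeR), a call lost without replicate 2 or 3 of the 28-day fasted or replicate 3 of the 28-day fed group (adjusted p up to 0.0735). In each of these 3 the 28-day fasted libraries lay below all 28-day fed libraries. The lowest adjusted p of the 13 was that of TRINITY_DN10495_c0_g1_i2_1 (1116 nucleotides), with 94.6, 106 and 136 CPM in 28-day fasted against 294, 281 and 327 CPM in 28-day fed livers and a log2 fold change of -1.77 ± 0.16 (adjusted p = 0.000116 by edgeR). The other 9 falls had log2 fold changes between -1.48 and -0.65, the smallest being that of TRINITY_DN14461_c0_g2_i3_4. Its call was lost in 15 of 24 alternative settings. The call of TRINITY_DN14111_c0_g1_i2_3 was lost in 17 of them, and those of TRINITY_DN14060_c0_g1_i6_4 and TRINITY_DN23204_c0_g1_i1_1 in 10 each. Leaving out 1 library gave 3 to 6 higher and 7 to 14 lower calls. The higher calls numbered 3 without replicate 2 or 3 of the 28-day fed group. The lower calls numbered 8 without replicate 2 and 7 without replicate 3 of the 28-day fasted group, and 8 without replicate 3 of the 28-day fed group. Calls over all features, in either direction, also dropped in these 3 fits, from 3197 to 1704, 1738 and 1905.

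The second comparison set the 8-day fast against the 28-day fed livers, since the 8-day fed control is the group that defined the features. It differs in sampling day as well as in feeding, and it shares its 28-day fed libraries with the first comparison. Of the 75, 5 were higher and 13 lower in 8-day fasted than in 28-day fed livers (edgeR, adjusted p under 0.05), and 57 did not pass. Higher calls made up 6.67% of the 75 and 3.41% of all features tested, and lower calls 17.3% and 4.44%. Among the 2215 others at 20 CPM or more, 6.91% were higher and 17.2% lower. These shares lie close to those of the 75. The median log2 fold change was -0.22 for the 75, 0.07 for all features tested and -0.17 for the 2215. No overlap in plain CPM was seen for 34 of the 75 (45.3%), beside 29.3% of all features tested. Of the 75, 16 lay higher in fasted livers (21.3%, beside 19.6% of all features) and 18 lower (24%, beside 9.67%). Again the share of the 2215 was not counted.

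TRINITY_DN8692_c0_g1_i1_4 rose most, by 2.51 ± 0.42 on the log2 scale (SE; adjusted p = 0.00501 by edgeR). TRINITY_DN13861_c0_g2_i1_4 had 189, 322 and 75.3 CPM in 8-day fasted livers, all above the 28-day fed libraries, and rose by 2.18 ± 0.51 (adjusted p = 0.0269 by edgeR). That call was lost in 6 of 24 alternatives, namely with only the 2 groups compared, with limma on log2(FPKM + 0.1), and without replicate 1 or 2 of the 8-day fasted or replicate 2 or 3 of the 28-day fed group (adjusted p up to 0.110). TRINITY_DN16819_c2_g2_i3_3 rose by 1.70 ± 0.32 (adjusted p = 0.00857 by edgeR), and its call was lost without replicate 2 or 3 of the 28-day fed group (adjusted p up to 0.0512). TRINITY_DN16806_c1_g1_i8_3 had 54.4, 120.3 and 25.1 CPM in 8-day fasted livers and the largest fall, with a log2 fold change of -2.62 ± 0.45 (adjusted p = 0.00568 by edgeR). TRINITY_DN14537_c1_g1_i1_1 had 40.2, 28.1 and 40.1 CPM and a log2 fold change of -1.94 ± 0.41 (adjusted p = 0.0154 by edgeR), a call lost without replicate 2 of the 8-day fasted group (adjusted p = 0.0533). TRINITY_DN10495_c0_g1_i2_1 had 90.0, 118 and 90.0 CPM and a log2 fold change of -1.84 ± 0.16 (adjusted p = 0.000103 by edgeR).

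TRINITY_DN13218_c0_g1_i5_1, lower after 28 days, did not pass at 8 days (log2 fold change -1.23, adjusted p = 0.0988 by edgeR), and its 8-day fasted replicate 3 was the high one. Neither did TRINITY_DN23204_c0_g1_i1_1 (log2 fold change -0.98, adjusted p = 0.0655 by edgeR). TRINITY_DN15514_c0_g1_i2_2 and TRINITY_DN16571_c0_g1_i7_3 were called lower at 8 days (log2 fold changes -0.98 and -0.60) and missed the threshold at 28 days (-0.80 and -0.44). The libraries of TRINITY_DN16571_c0_g1_i7_3 overlapped between the groups. The 8-day call of TRINITY_DN15514_c0_g1_i2_2 was lost in 12 of 24 alternative settings. So were the fall of TRINITY_DN14060_c0_g1_i6_4 and the rises of TRINITY_DN13439_c0_g1_i2_2 and TRINITY_DN14896_c3_g6_i1_1. The fall of TRINITY_DN14111_c0_g1_i2_3 was lost in 17. Leaving out 1 library gave 1 to 4 higher and 9 to 15 lower calls. The higher calls numbered 1 without replicate 2 or 3 of the 28-day fed group, 2 without replicate 1 of the 8-day fasted group, and 3 without replicate 2 of the 28-day fasted, replicate 2 of the 8-day fasted or replicate 1 of the 8-day fed group. Over all features, 2530 calls in either direction became 1415 and 1508 without replicate 2 or 3 of the 28-day fed group. Without replicate 1 of the 8-day fasted group they became 1548.

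**Figure D5:**
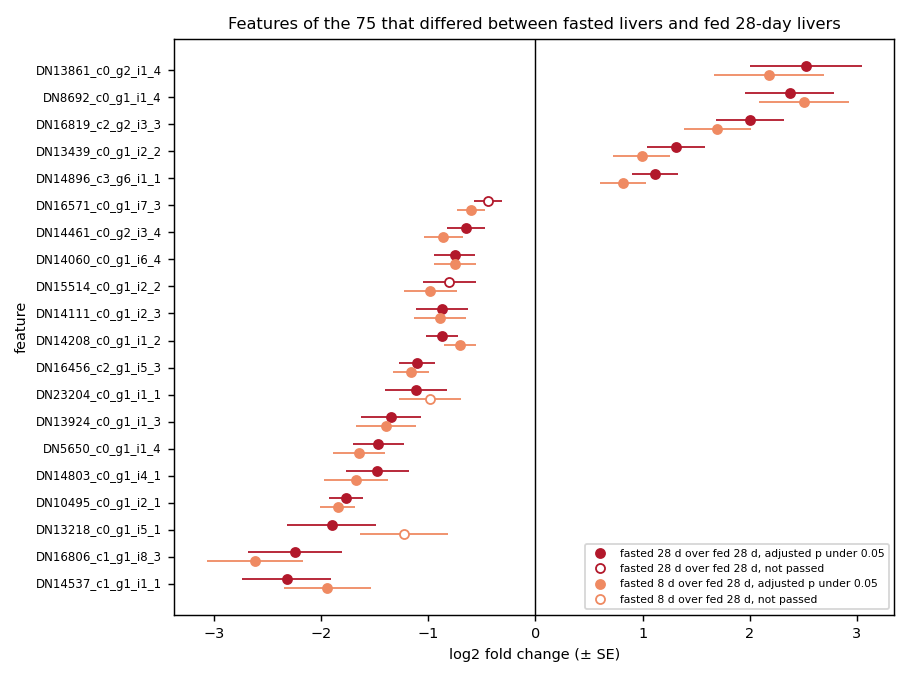
Log2 fold changes (points, ± SE) of the features called in either comparison, for 28-day fasted over 28-day fed and 8-day fasted over 28-day fed livers; filled points have an adjusted p under 0.05. Both comparisons use the same 28-day fed libraries. The values run from -2.32 to 2.52 after 28 days and from -2.62 to 2.51 after 8 days.

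The third comparison asked whether a longer fast changed the features. None of the 75 was called between 28-day and 8-day fasted livers by edgeR's quasi-likelihood test, and neither was any of the 32212 features tested (0%). At an unadjusted p under 0.05, 1 of the 75 and 2.78% of all features were counted. DESeq2 called 0 of the 75 and 32 of all features, and limma called 0 of the 75. The median log2 fold change of the 75 was 0.04, with a range of -1.08 to 1.01. TRINITY_DN16856_c1_g2_i1_3 (472 nucleotides) was the only one of the 75 whose libraries did not overlap (6.64% of all features tested), with 76.8, 66.7 and 48.6 CPM in 28-day fasted against 31.9, 39.7 and 38.7 CPM in 8-day fasted livers. Its log2 fold change was 0.70 ± 0.31 (SE; adjusted p = 1 by edgeR).

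Within a fasted group the libraries of some features differed more than the means of the fasted groups did. TRINITY_DN16641_c0_g1_i15_3 (3849 nucleotides) had 76.7, 372 and 244 CPM in 28-day fasted and 52.5, 295 and 56.5 CPM in 8-day fasted livers. Its 28-day fed livers held 202, 263 and 247 CPM and its 8-day fed livers 0.686, 0.795 and 0.920 CPM. TRINITY_DN14821_c0_g1_i2_2 (5813 nucleotides) had 17, 72.8 and 75 CPM in 28-day fasted and 14.6, 60.6 and 9.91 CPM in 8-day fasted livers, against 101, 86.4 and 90.4 CPM in 28-day fed and 3.76, 3.35 and 3.05 CPM in 8-day fed livers. In both features replicate 1 of the 28-day fasted group and replicates 1 and 3 of the 8-day fasted group were low. TRINITY_DN16623_c2_g1_i3_3 was low in replicate 3 of the 8-day fasted group alone, where its 42.2 CPM were 10.4% of the median of its other 8 libraries outside the 8-day fed group. For 10 of the 75 the lowest of the 9 libraries was at most 25% of the median of the other 8. The like share of other features was not counted, and nothing is read from this count.

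Some features with higher fasted levels and a wide spread did not pass the test. TRINITY_DN14850_c11_g1_i2_1 (2868 nucleotides) had the widest spread of the 75 over the 9 libraries (18.6-fold), with 188, 70.3 and 87.5 CPM in 28-day fasted, 133, 53.1 and 157 CPM in 8-day fasted and 36.5, 10.1 and 25.1 CPM in 28-day fed livers, against 0, 0.509 and 0.162 CPM in 8-day fed livers. TRINITY_DN17340_c0_g1_i1_2, the shortest of the 75 at 350 nucleotides, had 139, 102 and 117 CPM in 28-day fasted, 156, 82.6 and 103 CPM in 8-day fasted and 47.5, 9.16 and 41.8 CPM in 28-day fed livers, against 1.59, 0.800 and 0.863 CPM in 8-day fed livers. In both the fasted libraries lay above the 28-day fed ones without a call. For TRINITY_DN14850_c11_g1_i2_1 the log2 fold change over 28-day fed livers was 1.98 after 28 days and 2.09 after 8 days (adjusted p = 0.0980 and 0.0941 by edgeR). In both features replicate 2 of the 28-day fed group was the lowest of the 9. Over all 75, the lowest of the 9 was replicate 3 of the 8-day fasted group for 21 features (28%, beside 11.4% of the 2215 others). It was replicate 2 of the 28-day fed group for 19 (25.3%, beside 23.8%), a share close to that of the 2215. These shares were not tested.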

How the data were processed

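Liver RNA was sequenced in 12 samples, 3 in each of 4 groups. Per the labels' protocols, stranded mRNA libraries were made from RNA whose integrity number was at least 7. Trimmomatic and Bowtie2 appear in the tools listed per the submitters' processing notes, with no versions; assembler and abundance program: not given in the sources used here. Deposited by the authors were a table of estimated counts per feature, which are not whole numbers, and a table of FPKM values, which the authors scaled to feature length and library size. Estimated counts may share reads between similar features. Columns were matched to samples by group code and replicate number, and 0 columns were left unmatched. Counts divided by FPKM gave feature lengths once a total was fitted for each library, chosen to bring the lengths closest to whole numbers. The fitted totals were 95.8% to 105.1% of the column totals. With them, 100% of the lengths were whole within 0.02 nucleotides.

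CPM values are plain, relative to column totals. The counts were rounded for the tests, since the planned tests assumed whole counts. edgeR 4.0.16 (R 4.3.3) with filterByExpr by group kept 32212 features, among them all 75, and left out 10141; the 12 libraries were fitted as 4 group means with TMM scaling (factors 0.83 to 1.22), robust estimates and the quasi-likelihood F test, with Benjamini-Hochberg adjustment over all of them. Approximate standard errors of the log2 values came from the F statistic. The common dispersion was 0.29. The test was checked on simulated counts. A chi-square check over the 12 pairs of libraries within groups gave 12.3 to 65.7 per feature, so all were counted as separate samples. The lowest value was that of replicates 1 and 2 of the 8-day fed group, and the next lowest was 25.7. Such a check looks for a repeated library and does not show that the libraries came from separate fish. The features and every list of features were chosen with earlier results of these data known. Named were the 10 with the most CPM, the most abundant of each last number and those with no count in the 8-day fed group. The 3 on each side of the 1/8 limit and the 3 highest and 3 lowest called per comparison were also named. A further rule, for members that share a Trinity gene with other features, named none. All others, the cluster features among them, were named after their values were seen. Alternatives were other scalings, filters and thresholds, DESeq2 1.42.0, limma 3.58.1 on log2(FPKM + 1) and log2(FPKM + 0.1), a replicate block, other sets of libraries, other limits for choosing the features, and leaving out each library.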

Additional observations from a re-analysis of the deposited data

How the results depend on the processing

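With the limit at 1/4 or 1/16 in place of 1/8, 164 or 33 features were chosen, and with 10 or 50 CPM in place of 20 CPM, 122 or 31. FPKM in place of CPM gave 50 features (42 of the 75 among them). FPKM is scaled to feature length, so a limit in FPKM is not the same limit as in CPM. TMM scaling gave 74 features (69 shared), and leaving out 1 library gave 64 to 81. Across these settings 52.0% to 68.8% carried a last number of 1 or 2. For 28-day fasted over 28-day fed livers, the 5 higher calls became 3 at an adjusted p under 0.01, and 8 with library size alone, with DESeq2, and with limma on log2(FPKM + 1) or log2(FPKM + 0.1); the 13 lower calls became 6 at 0.01 and 7 with limma on log2(FPKM + 0.1). Leaving out 1 library gave 3 to 6 higher and 7 to 14 lower calls. For 8-day fasted over 28-day fed livers, the 5 higher calls became 2 at 0.01, 3 with the 9 libraries outside the 8-day fed group and 2 with the 6 libraries compared; the 13 lower calls became 5 at 0.01. Leaving out 1 library gave 1 to 4 higher and 9 to 15 lower calls. DESeq2 gave 19 lower calls in each of these comparisons. Over all features it gave 5425 and 4564 calls in either direction, beside 3197 and 2530 by edgeR. Between the fasted groups every setting run gave 0 calls among the 75. No called feature changed direction in 864 alternative values of 36 calls, 152 values no longer passed, and 15 calls passed in every one of theirs. All of these values were judged at an adjusted p under 0.05, so the stricter limit of 0.01 is not among them. The cause of each change was not tested. No source used here says whether the replicate numbers pair the samples. Deviations of same-numbered libraries correlated at -0.40 to 0.06 for 28-day fasted with 28-day fed and 0.09 to 0.41 for 8-day fasted with 28-day fed. For 28-day with 8-day fasted they correlated at -0.58 to 0.66. With so few libraries per group these values cannot settle the question. With the replicate number as a block, 6 higher and 12 lower calls were made in each of the 2 comparisons with 28-day fed livers. A level under about 3 counts, 0.158 to 0.177 CPM in the 8-day fed libraries, could not be told from none.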
